A study of Homo sapiens with 4 samples.

Results

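The mitochondrial genome transcripts are the genes that the authors' deposited table places on the mitochondrial genome, whatever their type. They were taken by chromosome name, and 30 of the 34675 rows met this rule. These are the 13 protein-coding genes, the 2 ribosomal RNAs and 15 transfer RNAs, with 26 on the plus and 4 on the minus strand. The other 7 transfer RNA genes of the mitochondrial annotation, 5 of them on the minus strand, are not analysed here. Total RNA came from MDA-MB-231, an established triple-negative breast carcinoma line first grown from a pleural effusion, kept on plastic in DMEM with serum. A stable line with the empty plasmid pcDNA-Vector was compared with a stable line carrying pcDNA-FLAG-LKB1 wildtype, which encodes the serine/threonine kinase LKB1 (gene STK11). Each line gave 2 libraries, and the labels do not say whether a line is 1 clone or a pool, or whether duplicates were separate cultures. The p-values rest on the authors' estimate of the variation between libraries. With such duplicates this variation may be technical only, and it need not be each gene's own spread. Of the LKB1 libraries 1 carries another run tag in its title than the rest, and LKB1 titles read fmRNA where vector titles read mRNA, a difference that the labels do not explain. Whatever it stands for cannot be told apart from the group.

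Mitochondrial DNA is a small circular genome that is read through from a few promoters into long transcripts covering most of a strand. The plus-strand genes, which are the rRNAs, most tRNAs and all but one of the mRNAs, come from the heavy-strand promoter. The light-strand promoter gives MT-ND6, which encodes a subunit of complex I, and the minus-strand tRNAs. Many tRNAs lie directly between the other genes, and their excision by RNase P (5′ end) and ELAC2 (3′ end) releases the mRNAs and rRNAs. Nuclear genes supply every protein needed for this and most respiratory chain subunits, and all 13 proteins of the mitochondrial genome enter complexes I, III, IV and V.

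The tRNAs that the results turn on are shown as the sense strand of the gene, 5′ to 3′, from GENCODE 29 by gene identifier, with the anticodon in capitals. The first 4 are the plus-strand tRNAs that passed the authors' test, and the last 3 are the minus-strand tRNAs, shown because strands are compared below. Positions given with a gene below are those on the mitochondrial genome in the deposited table, which match the GENCODE 29 annotation.
MT-TL1, leucine: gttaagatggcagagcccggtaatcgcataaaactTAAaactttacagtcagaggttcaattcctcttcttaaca
MT-TM, methionine: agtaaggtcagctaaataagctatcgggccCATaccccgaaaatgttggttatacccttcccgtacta
MT-TG, glycine: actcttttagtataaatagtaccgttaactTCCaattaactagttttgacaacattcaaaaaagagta
MT-TT, threonine: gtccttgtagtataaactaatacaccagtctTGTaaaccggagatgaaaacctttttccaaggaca
MT-TC, cysteine: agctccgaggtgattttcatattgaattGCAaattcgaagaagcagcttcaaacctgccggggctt
MT-TY, tyrosine: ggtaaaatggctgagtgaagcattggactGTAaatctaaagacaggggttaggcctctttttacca
MT-TP, proline: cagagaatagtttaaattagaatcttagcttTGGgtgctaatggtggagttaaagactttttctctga
The sense strands of the 4 minus-strand genes held at least 23.5% G, against at most 19.1% in the plus-strand genes. MT-ND6 held 35.6% G.

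The deposited table holds 1 fold, 1 p-value and 1 adjusted p-value per gene and no value per library, and its header gives no direction. Folds are given as LKB1 over vector, since STK11 lay above 1 with 1321 vector and 2112 LKB1 reads (log2 0.62, adjusted p = 0.00105 in the authors' deposited table). That total does not separate plasmid from endogenous transcripts. Read totals here add up both libraries of each line, were recovered from the folds, and came to 10929938 (vector) and 11533194 (LKB1) over all recovered genes. The depth ratio of LKB1 to vector that the folds imply over all genes was 1.0397. Of 5 genes that the line is known to express, CD44 had 9732 and 12579 reads, EGFR 6075 and 5726, and the totals of VIM, MSN and AXL were too high to recover, with AXL called higher and MSN lower. Of 4 genes known to be low in it, ESR1 had 8 and 12 reads and PGR 4 and 0, but CDH1 had 431 and 278 and EPCAM 152 and 209, neither called. As a check on mix-ups by 1 gene, with a limit of 3 reads, 1 group of 2 did not match the named cell line. CDKN2A, a gene deleted in MDA-MB-231, had 32 reads in the vector and 3 in the LKB1 line, the latter just at the limit. This gene alone does not settle the identity of either line, and CDH1 and EPCAM had reads in both. Of 9 endothelial markers 8 had a row, with 2296 reads in all in the vector and 626 in the LKB1 line, 7 of them called lower, and none at 0 in either line. Of 4 leukocyte markers with a row 1 was called higher and 1 lower (2357 and 1746 reads in all), and of 7 fibroblast markers 0 and 2 (456 and 423 reads). Their part in the differences below was not tested. In bulk RNA, more of a transcript per cell and more cells that carry it cannot be told apart.

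Transcripts of the mitochondrial genome were mostly higher with LKB1. By the authors' deposited table, an adjusted p under 0.05 was reached by 10 of the 30 genes, each with a fold above 1. None was called lower. Over all 34675 genes 2.55% were called higher and 3.24% lower. Among the 11249 genes with at least 200 reads the shares were 6.20% and 5.83%, and among the 24 mitochondrial genes above that minimum 9 were called (37.5%). The 2 sets share this minimum only and were not matched for depth. Of the mitochondrial genes 11 had totals too high to recover, and at higher totals a given fold passes more easily. Mitochondrial genes also share precursors, so their calls are not independent. Neither of the 2 mitochondrial genes below 0 had an unadjusted p under 0.05, and 18 of the 28 above 0 did. Of the 11249 genes with at least 200 reads 2861 did. The median log2 fold was 0.49 for the 30 genes and -0.04 for the 28242 genes with reads. The median fold was 1.41, and folds of about 2 or more were found among tRNAs alone.

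**Figure D1:**
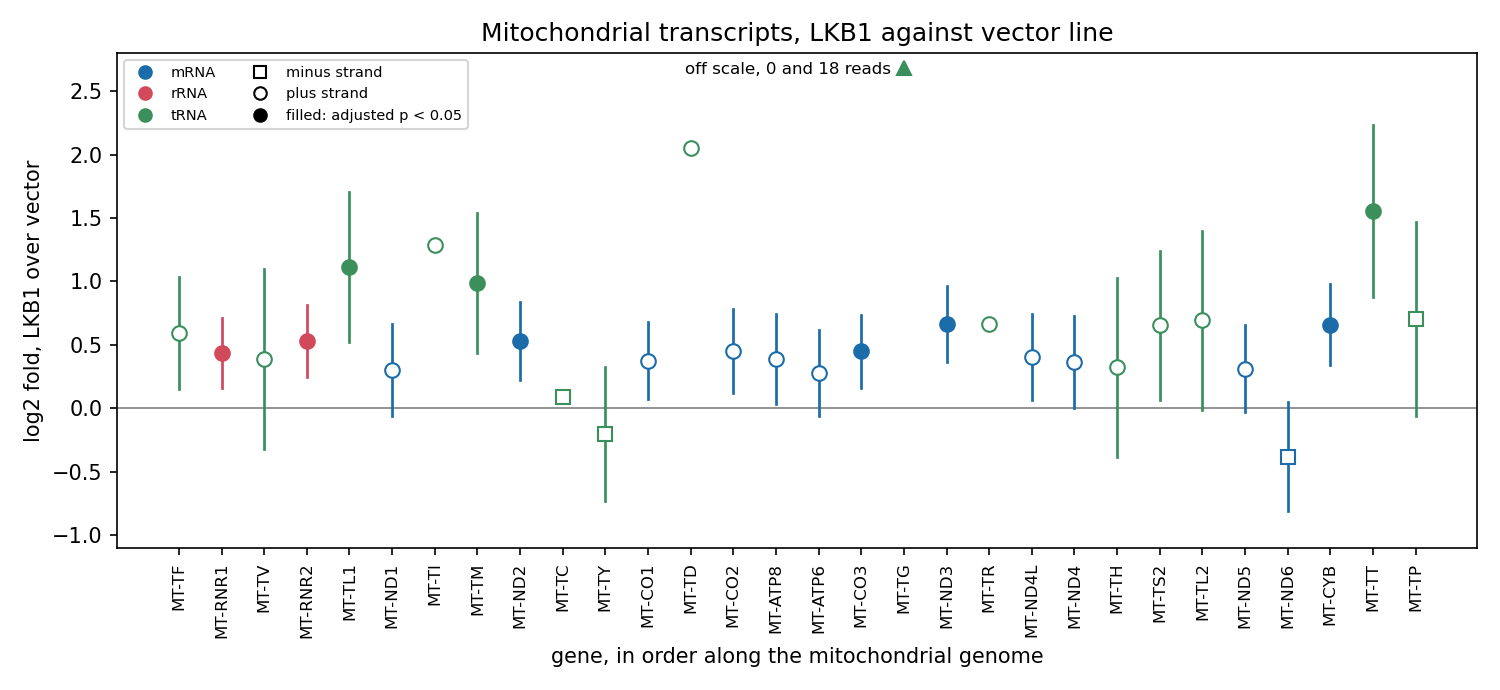
Log2 fold of LKB1 over vector (y axis) for the 30 mitochondrial genes in their order along the genome (x axis). Bars are 95% intervals implied by the deposited p-values, drawn for genes with at least 100 reads, and filled symbols passed an adjusted p of 0.05. All 26 plus-strand genes (circles) lie above 0, and MT-TG, with 0 and 18 reads, is off the scale.

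Both ribosomal RNAs, the scaffold of the mitochondrial ribosome, rose. MT-RNR1 (ENSG00000211459.2, 12S, positions 648 to 1601) had a log2 fold of 0.44 (95% interval 0.16 to 0.71, adjusted p = 0.0356 in the authors' deposited table). For MT-RNR2 (ENSG00000210082.2, 16S, 1671 to 3229) it was 0.53 in the authors' deposited table (0.25 to 0.81, adjusted p = 0.00671). The intervals are those that the deposited fold and p imply on a normal scale, and they carry the authors' estimate of the spread between libraries. The totals of these abundant RNAs could not be recovered. The lowest pair of whole totals that fits was 23084 and 32463 reads for MT-RNR1 and 25621 and 38480 for MT-RNR2. Their folds in the authors' deposited table were 1.35 and 1.44. Both calls were lost with the stricter Benjamini-Yekutieli adjustment of the deposited p-values (adjusted p = 0.393 for MT-RNR1 and 0.0741 for MT-RNR2).

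Of the 13 mRNAs, 4 rose and none fell, and 12 lay above 0, with a median log2 fold of 0.39. Within complex I, the NADH dehydrogenase, MT-ND3 (ENSG00000198840.2, 10059 to 10404) had the highest fold, with 3523 vector and 5811 LKB1 reads. Its log2 fold in the authors' deposited table was 0.67 (95% interval 0.37 to 0.97, adjusted p = 0.000536). MT-ND2 (ENSG00000198763.3, 4470 to 5511) rose by 0.53 (0.22 to 0.84, adjusted p = 0.0166 in the authors' deposited table). No other plus-strand subunit of complex I passed. MT-ND4L had 8316 and 11440 reads (log2 0.40, adjusted p = 0.211 in the authors' deposited table) and MT-ND1 8995 and 11553 (0.30, adjusted p = 0.606). MT-ND4 was at 0.36 and MT-ND5 at 0.31 in the authors' deposited table, with adjusted p of 0.39 and 0.517. Thus the 6 plus-strand complex I mRNAs all lay between 0.30 and 0.67, with intervals that overlap. With the Benjamini-Yekutieli adjustment the call of MT-ND3 held and that of MT-ND2 did not.

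Cytochrome b, the only complex III subunit of this genome, is encoded by MT-CYB (ENSG00000198727.2, 14747 to 15887), which rose by 0.66 (95% interval 0.34 to 0.98, adjusted p = 0.00186 in the authors' deposited table). Of the 3 catalytic-core subunits of complex IV, cytochrome c oxidase, MT-CO3 (ENSG00000198938.2, 9207 to 9990) rose by 0.45 (0.16 to 0.74, adjusted p = 0.0389 in the authors' deposited table). MT-CO2 was also at 0.45 and MT-CO1 at 0.37 in the authors' deposited table, but with adjusted p of 0.108 and 0.182 neither passed. These 3 folds differ by less than the width of their intervals. With the Benjamini-Yekutieli adjustment the call of MT-CYB held and that of MT-CO3 did not. The ATP synthase subunits of complex V were at 0.39 for MT-ATP8, with 5143 and 7002 reads, and 0.28 for MT-ATP6, in the authors' deposited table (adjusted p = 0.299 and 0.627). Their genes overlap by 46 bases and those of MT-ND4L and MT-ND4 by 7, and how reads in an overlap were counted is not given in the sources used here. In the deposited table the mitochondrial MT-ATP8 carries a clone name, and the row with its symbol is a pseudogene on chromosome 2 with 1 read.

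**Figure D2:**
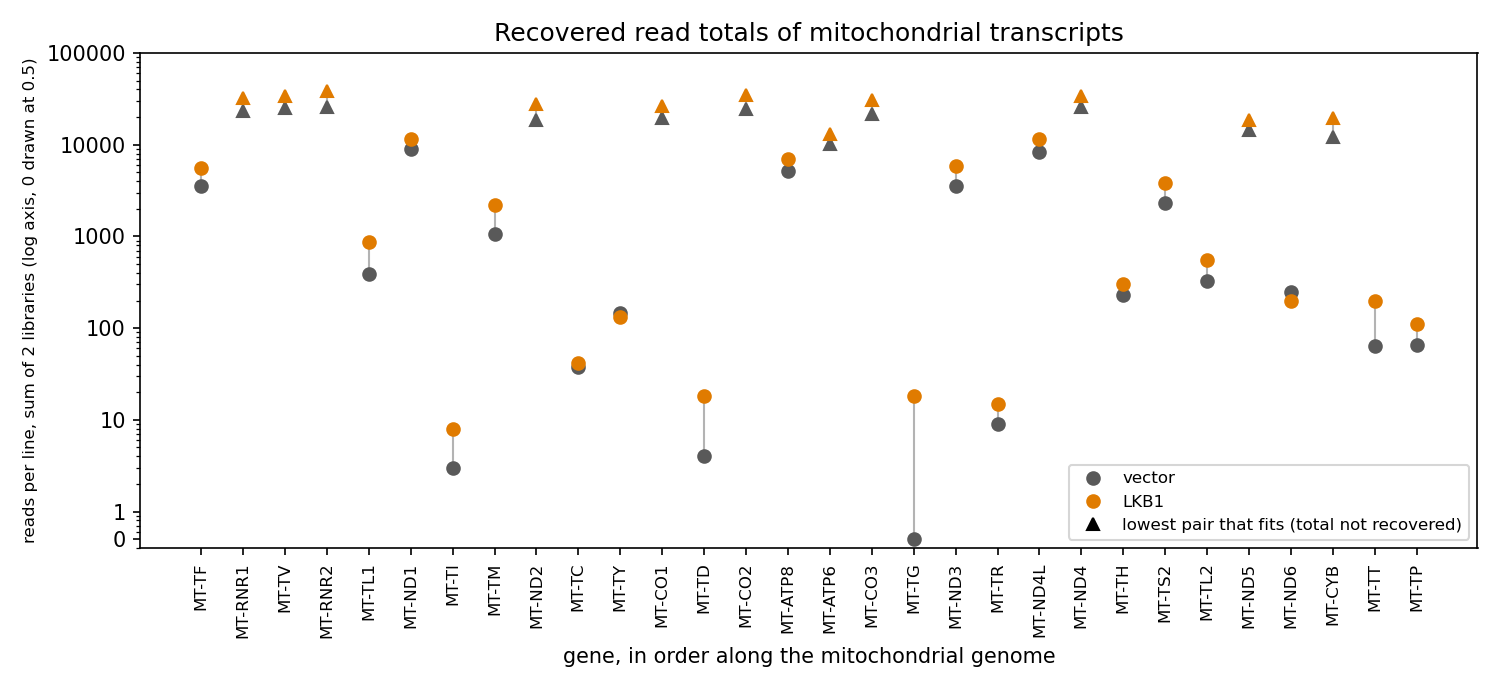
Reads per line, summed over 2 libraries (y axis, log scale with 0 drawn at 0.5), for the 30 genes in genome order (x axis), vector in grey and LKB1 in orange. Triangles are the lowest pair of whole totals that fits where the total could not be recovered; MT-ND6 and MT-TY are the genes with more reads in the vector line.

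The tRNAs, which decode the mitochondrial mRNAs, showed the largest folds and the widest spread. Of 15 tRNAs 4 rose and none fell, 14 lay above 0, and the median log2 fold was 0.69. MT-TT (ENSG00000210195.2, 15888 to 15953) had 64 vector and 196 LKB1 reads. Its log2 fold in the authors' deposited table was 1.55 (95% interval 0.87 to 2.23, adjusted p = 0.00032). MT-TL1 (ENSG00000209082.1, 3230 to 3304), which reads leucine UUA and UUG codons, had 385 and 868 reads, a log2 fold of 1.12 (0.52 to 1.71, adjusted p = 0.00606 in the authors' deposited table). MT-TM (ENSG00000210112.1, 4402 to 4469), the only methionine tRNA of mitochondria, had 1061 and 2188 reads. That is a log2 fold of 0.99 in the authors' deposited table (0.44 to 1.54, adjusted p = 0.0103). These 3 RNAs were near 2-fold or more above the vector line, beyond the fold of every mRNA and rRNA, although their intervals overlap those of MT-ND3 and MT-CYB. With the Benjamini-Yekutieli adjustment the calls of MT-TL1 and MT-TM were lost and that of MT-TT held.

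MT-TG (ENSG00000210164.1, 9991 to 10058), between MT-CO3 and MT-ND3 with no base on either side, had 0 vector and 18 LKB1 reads. With 3 reads set in place of 0 for the vector line, its depth-adjusted ratio was 5.77, which takes the 18 reads as exact. On the observed reads the counting interval of the ratio starts at 4.23 and has no upper end. MT-TG passed the authors' test (adjusted p = 0.000827 in the authors' deposited table). Other tRNAs of low count did not pass. MT-TD, for aspartate, had 4 and 18 reads, a depth-adjusted ratio of 4.33 (counting interval 1.43 to 17.6). MT-TI, for isoleucine, had 3 and 8 (ratio 2.56, interval 0.616 to 15.01), and MT-TR, for arginine, 9 and 15 (ratio 1.60, interval 0.657 to 4.15). Counting intervals are exact (Clopper-Pearson, 95%) and cover counting error only.

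The better covered plus-strand tRNAs that did not pass were MT-TF, for phenylalanine, with 3587 and 5623 reads, and MT-TS2, for serine, with 2325 and 3803. Their log2 folds in the authors' deposited table were 0.59 and 0.65, with adjusted p of 0.117 and 0.286. MT-TL2, the second leucine tRNA, had 325 and 547 reads and MT-TH, for histidine, 232 and 302, at log2 folds of 0.69 and 0.32 in the authors' deposited table. MT-TV, which carries valine and is also built into the large subunit of the human mitochondrial ribosome, stood apart in level. Its lowest fitting pair was 24828 and 33836 reads, or at least 359.8 reads per base of gene in the vector line. Next came MT-TF with 50.5 and MT-TS2 with 39.4 reads per base in the vector line, while MT-TI had 0.0435. The log2 fold of MT-TV was 0.39 in the authors' deposited table (95% interval -0.32 to 1.10, adjusted p = 1). A tRNA row cannot tell the mature RNA from a longer precursor that spans the gene.

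The fold of each plus-strand tRNA was set beside those of its neighbours on the same transcript. Of 11 plus-strand tRNAs with an mRNA or rRNA at most 3 bases away, 9 had a log2 fold above that of each such neighbour, the exceptions being MT-TV and MT-TH. Of these 9, MT-TR was level with MT-ND3, at 0.67 each, and MT-TI, MT-TD, MT-TG and MT-TR had few reads. Among the 7 with at least 100 reads or an unrecovered total it was 5. MT-TT was at 1.55 beside MT-CYB at 0.66, and MT-TL1 at 1.12 between MT-RNR2 at 0.53 and MT-ND1 at 0.30, in the authors' deposited table. MT-TM stood at 0.99 beside MT-ND2 at 0.53. This is a description with no test, since members share libraries and precursors and no value per library is at hand. Other classes of short RNA held genes on both sides of 0, and all but the nuclear rRNA rows had a median above it. At 20 reads or more, 73.7% of small nucleolar, 58.0% of small nuclear, 58.8% of miscellaneous and 53.7% of microRNA genes were above 0. For nuclear rRNA rows it was 34.0%, and for all genes with reads 45.7%. For the 266 small nucleolar RNA genes of 20 reads or more the median log2 fold was 0.20, with 15 called higher (5.64%, against 6.20% of genes with at least 200 reads) and 1 lower. The 50 small nuclear RNA genes had a median of 0.10, with 3 called higher (6%) and none lower. The 47 rows typed as nuclear rRNA had one of -0.11, with none called higher and 3 lower. For the 68 genes typed as miscellaneous RNA it was 0.23, with 2 called higher (2.94%) and none lower. The 95 microRNA genes had a median of 0.21, with 26 called higher (27.4%) and 5 lower (5.26%). Of the mitochondrial tRNAs 26.7% were called higher. The part that recovery of short RNA has in the tRNA folds was not tested.

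All plus-strand genes lay above 0, and the minus-strand genes on both sides of it. The 26 plus-strand genes had a median log2 fold of 0.53, and 10 of them were called. Of the 4 minus-strand genes 2 were above 0 and 2 below, with a median of -0.06, and none passed (none at an unadjusted p under 0.05). MT-ND6 (ENSG00000198695.2, 14149 to 14673) had 249 vector and 199 LKB1 reads. Its log2 fold in the authors' deposited table was -0.38 (95% interval -0.80 to 0.05, adjusted p = 0.541). The intervals of 14 of 22 plus-strand genes with at least 100 reads lay wholly above that of MT-ND6, whose own interval includes 0. MT-TY (5826 to 5891) had 147 and 133 reads and MT-TC (5761 to 5826), which shares 1 base with it, 38 and 42. MT-TP (15956 to 16023) had 66 and 112 reads, a log2 fold of 0.70 in the authors' deposited table (interval -0.06 to 1.47, adjusted p = 0.5). The intervals of MT-ND6, MT-TY and MT-TP overlap, but overlap is no test, and differences among the minus-strand genes were not tested. Their depth-adjusted ratios were 0.769 (counting interval 0.635 to 0.930), 0.870 (0.683 to 1.11) and 1.63 (1.19 to 2.25). Those of MT-ND6 and MT-TP do not overlap, but they cover counting error only. Without values per library the difference between strands was not tested.

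The minus-strand mRNA was also far scarcer. MT-ND6 had 0.474 (vector) and 0.379 (LKB1) reads per base of gene. The plus-strand mRNAs with recovered totals, MT-ND1, MT-ND3, MT-ATP8 and MT-ND4L, had 9.41 to 28.0 reads per base in the vector line and 12.1 to 38.5 in the LKB1 line. The library method keeps strand, per the labels, but whether counting used it is not given in the sources used here, so antisense reads in these rows cannot be told apart from sense ones.

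Copies of mitochondrial DNA in nuclear chromosomes can take or share its reads. Of 42 rows named as such copies 25 had reads, none was called (2 at an unadjusted p under 0.05), and 12 lay above 0 and 13 below. The largest total was 786 reads, for MTND4P12 on chromosome 5. MTND6P4, a copy of MT-ND6 on chromosome 5, had 244 vector and 195 LKB1 reads, that is 5 and 4 fewer than MT-ND6 itself. Its log2 fold in the authors' deposited table was also -0.38. The value of MT-ND6 is therefore uncertain, since reads of the gene and its copy cannot be told apart. MTND4P12 had 381 and 405 reads, against at least 25499 and 34116 for MT-ND4. MTRNR2L1, a copy of MT-RNR2 on chromosome 17, had 214 and 277, against at least 25621 and 38480 for its source.

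**Figure D3:**
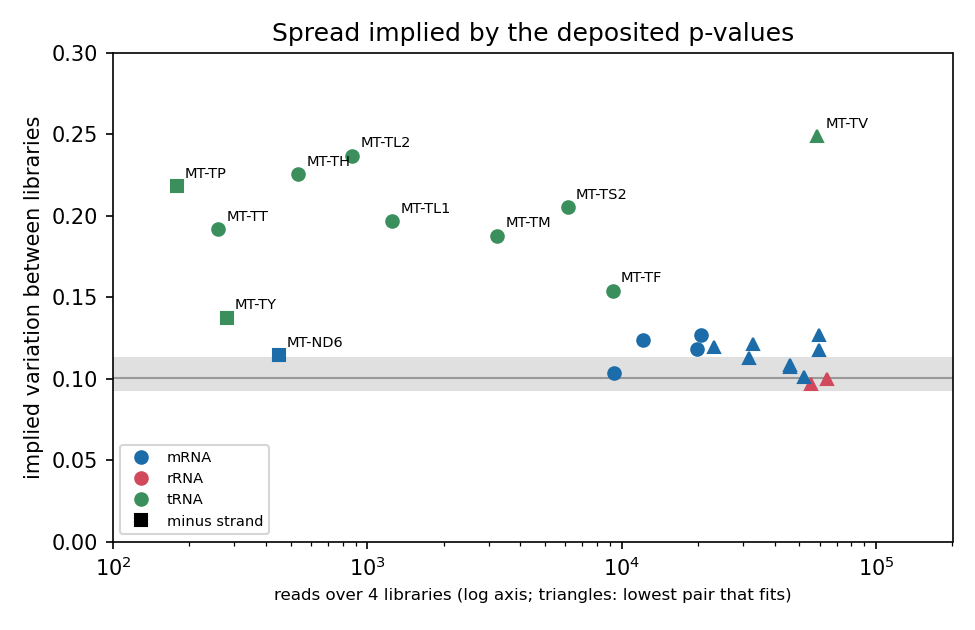
Coefficient of variation between libraries that the deposited p-values imply (y axis) against reads over 4 libraries (x axis, log scale) for 25 mitochondrial genes. The band spans the 5th to the 95th percentile, 0.0931 to 0.113, of protein-coding genes with at least 1000 reads. The tRNAs lie at 0.137 to 0.249 and the mRNAs and rRNAs at 0.0969 to 0.127.

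The deposited p-values imply the variation between libraries that the authors' test used for a gene. How that was estimated is not given in the sources used here, and it need not be the spread of the gene's own duplicates. For the 15 mRNAs and rRNAs the implied coefficient of variation had a median of 0.114 and a highest value of 0.127. For protein-coding genes of 1000 reads or more it was 0.1004. For the 10 tRNAs with at least 100 reads or an unrecovered total the median was 0.201, from 0.137 in MT-TY to 0.249 in MT-TV. Of these 10, 9 exceeded the 95th percentile of protein-coding genes of like depth, and of the mRNAs and rRNAs 7 of 15 did. As a class the tRNAs thus had both the larger folds and the larger implied variation. The called MT-TT, MT-TL1 and MT-TM had values of 0.192, 0.197 and 0.188, close to the tRNA median and above every mRNA and rRNA. The value is derived from fold and p, so at a given fold and depth a smaller p gives a lower one. Called and other tRNAs can therefore not be compared by it. When a variation of 0.2 was assumed for every gene, 4 of the 10 calls held, those of MT-TL1, MT-TM, MT-TG and MT-TT, and no mRNA or rRNA passed.

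The nuclear genes that build and serve the same complexes were near 0. Of 77 nuclear respiratory chain subunits 2 were called higher and 1 lower, with a median log2 fold of 0.06. These were the complex I accessory subunits NDUFB11 (362 and 630 reads, log2 0.74, adjusted p = 0.000401 in the authors' deposited table), NDUFB2 (0.62) and NDUFB7 (-0.54). The subunits of complexes II, III, IV and V held no called gene among 4, 9, 11 and 16 (0, 0, 0 and 3 at an unadjusted p under 0.05), with medians of 0.02, 0.06, -0.04 and 0.05. Of 76 mitochondrial ribosomal proteins MRPS6 rose (0.48) and MRPL4 fell (-0.57) in the authors' deposited table, at a median of -0.04.

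Genes that copy and transcribe mitochondrial DNA, with the factor TFAM and the polymerase POLRMT among them, held no called member of 19 (4 at an unadjusted p under 0.05) and had a median of -0.15. In RNA processing and stability 2 of 27 fell (7.41%, near the 5.83% of genes with at least 200 reads) and none rose, at a median of -0.05. An unadjusted p under 0.05 was reached by 8 of the 27, and by 2861 of the 11249 genes with at least 200 reads. GTPBP3, which modifies mitochondrial tRNAs, had 364 vector and 187 LKB1 reads (log2 -1.02, adjusted p = 0.000283 in the authors' deposited table). HSD17B10, a subunit of mitochondrial RNase P, had 1061 and 684 reads (-0.69, adjusted p = 0.000745 in the authors' deposited table). ELAC2, which cuts tRNA 3′ ends, was at -0.43 with an adjusted p of 0.0926 in the authors' deposited table and did not pass. The 22 aminoacyl-tRNA synthetases and partners held no called gene (3 at an unadjusted p under 0.05), at a median of -0.09. Among 9 regulators of mitochondrial biogenesis the coactivator gene PPARGC1A rose from 113 to 213 reads (log2 0.86, adjusted p = 0.0244 in the authors' deposited table), and the other 8 did not pass. Over these 10 lists 4 of 230 genes were called higher and 4 lower, at a median of -0.02. These are 1.74% each way, against 6.20% and 5.83% of all genes with at least 200 reads.

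**Figure D4:**
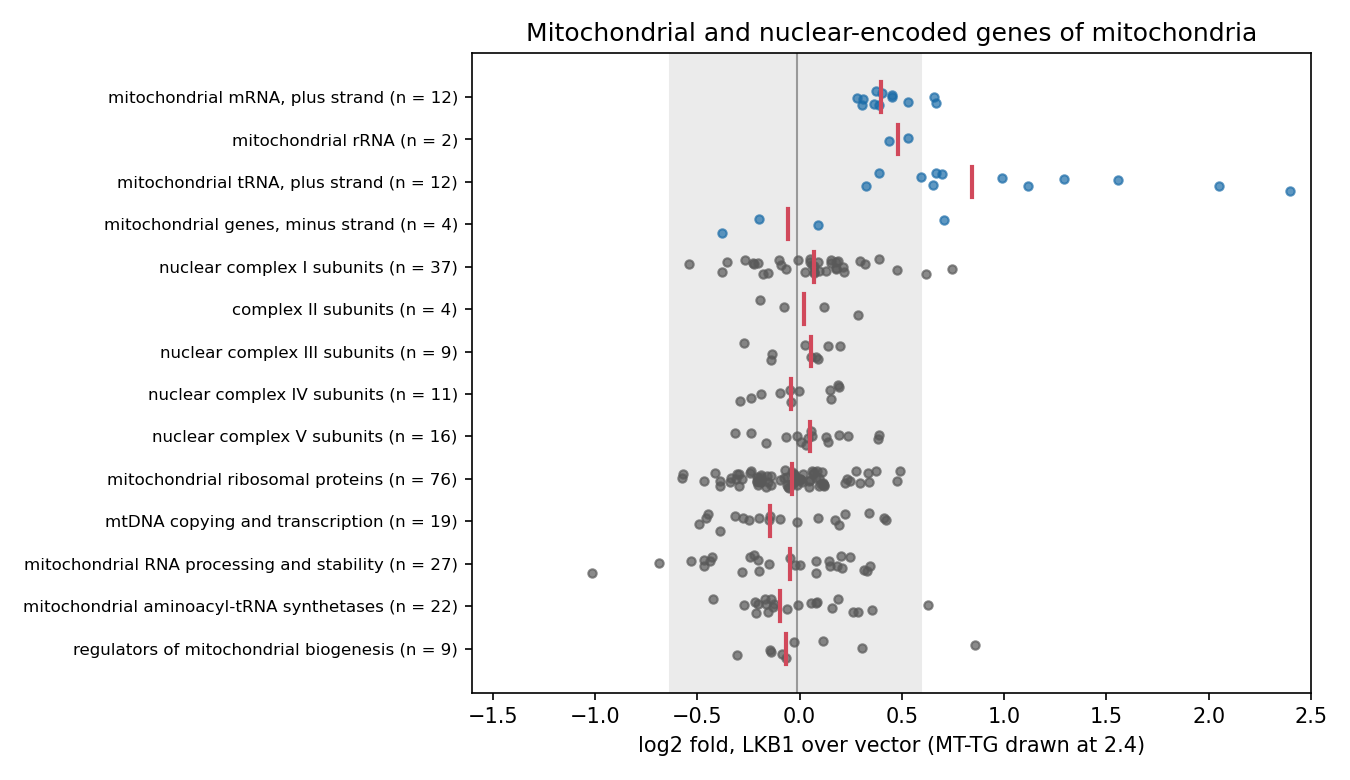
Log2 fold of LKB1 over vector (x axis) for mitochondrial genes by class and strand (blue) and for the 10 lists of nuclear-encoded genes (grey), with medians in red. The grey band holds the 5th to the 95th percentile of 10426 protein-coding genes with at least 200 reads, -0.63 to 0.59; the plus-strand groups lie to the right of 0 and the nuclear lists around it.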

How the data were processed

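RNA of 2 vector and 2 LKB1 libraries was compared in 1 table of 34675 genes. Per the file headers, the authors deposited for each gene the fold as a ratio and as log2, with raw and adjusted p-value. Named without a role in the submitters' processing notes are hg19 and the tools TopHat2 2.0.6, edgeR 2.6.0 and CASAVA 1.8.2. How reads were counted, the use of strand, the annotation and the handling of reads with several matches were not given in the sources used here. The deposited adjusted p-values equal a Benjamini-Hochberg adjustment over all genes to within 1.9e-06, and single-gene adjusted p-values here are the authors'. Gene identifiers, versions and positions of all 30 members matched GENCODE 29, which gave symbols and sequences; the table's tRNA, rRNA and MT-ATP8 rows carry clone names.

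Read totals per line were computed here from the folds. With prior counts of 0.254868 (LKB1) and 0.245132 (vector) reads, the fold takes only certain values. Whole totals fitted 28116 of 28242 genes with reads (99.55%), allowing at most 0.05 expected chance matches per gene; altered constants fitted 5 to 17 of 3000 genes against 2819. Of the members 19 were recovered and 11 were not. Intervals follow from log2 fold and p on a normal scale and were not tested on simulated data. The implied variation follows from a negative binomial exact test of the group sums (scipy 1.17.1), which was tested on simulated data. For the 11 members not recovered it follows from the limit of that test for unlimited reads, which was not tested on simulated data. No column of per-sample values was present, so no library was left out in turn and no library could be compared with its duplicate. The run tag in the titles, and what fmRNA and mRNA there stand for, could not be tested. Genes named are all mRNAs and rRNAs, tRNAs that were called or, of the rest, the 4 with most recovered reads on each strand, and up to 4 genes of lowest p per nuclear list; MT-TV, MT-TD, MT-TI, MT-TR and the named nuclear copies were chosen after their values were seen. Members and lists were chosen with earlier results of these data known. Alternatives tried were other thresholds, adjustment, assumed spread, centring and read minimums.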

Additional observations from a re-analysis of the deposited data

How the results depend on the processing

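No paired analysis was possible because the table holds no value per library and the titles letter the libraries A and B (vector) and C and D (LKB1), which pairs none; leaving out a library was not run for the same reason. The 10 mitochondrial genes called higher became 6 at an adjusted p under 0.01, 4 with the Benjamini-Yekutieli adjustment (MT-TG, MT-ND3, MT-CYB and MT-TT) and 4 with an assumed variation of 0.2 between libraries (MT-TL1, MT-TM, MT-TG and MT-TT). Of the 10, 6 are not tRNAs, an alternative chosen after seeing the data. Thus with a variation of 0.2, near that implied for the tRNAs, no mRNA or rRNA passed. That setting lies above the 0.0969 to 0.127 implied for the mRNAs and rRNAs themselves. The count stayed at 10 at an adjusted p under 0.1 and with folds centred on protein-coding genes, a shift of -0.01, and no setting called a mitochondrial gene lower. For nuclear-encoded genes the 4 higher and 4 lower became 2 and 2 at an adjusted p under 0.01, 1 and 2 with Benjamini-Yekutieli, and 0 and 0 at the assumed variation of 0.2. Class and strand medians kept their sign when centred and at read minimums of 20 and 40. By class, the plus-strand median of 0.53 was 0.84 for tRNAs, and the minus-strand median of -0.06 was -0.38 for MT-ND6 and 0.09 for tRNAs. Totals under 100 reads in 5 tRNAs limit their folds.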
